A study of Mus musculus with 48 samples.

Results

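The messenger RNAs of the granule proteases granzyme A, B, C, D, E, F and K, of the pore former perforin (Prf1) and of the granule membrane protein Nkg7 were measured in single cells of mouse gliomas with or without knockdown of P-selectin. These 9 genes, of 20300 in the table of the whole-tumor mix, were taken by symbol as the main contents of cytotoxic granules. They were read in natural killer (NK), CD8, CD4, regulatory and proliferating T cells, gated on fixed markers that include none of the 9. GL261 glioma cells carrying a control hairpin (shNC) or a hairpin against Selp (shSELP) were implanted into the brains of male C57BL/6 mice aged 6 weeks. The labels place the harvest of the mix at day 16 and the published methods at day 17, and they name kit version 2 and version 3, respectively. Cells of 3 brains per group were pooled, and CD11b+ cells, CD45+ cells and the rest were combined in equal amounts. It is not stated whether the 2 libraries of a group come from separate pools, so a difference between groups may also be a difference between pools.

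Selp, the targeted gene, was counted in every library as a check of the labels. In the order shNC 1, shNC 2, shSELP 1 and shSELP 2, Selp had 17, 25, 21 and 21 UMIs (unique molecules counted) in 10, 14, 7 and 14 cells, or 0.741, 1.1, 1.21 and 0.821 CPM (UMIs per 1000000 UMIs, here of the library and below of the gate). Selp therefore did not separate the groups. As the hairpin was in the GL261 cells alone and Selp was counted over all cells, this count could not decide whether the labels hold. The paper reports silencing of Selp in the cell line, and SELP staining on tumor blood vessels too. The group names rest on the labels. The libraries held 2289, 2297, 2293 and 2293 cells, of which 2183, 2179, 2190 and 2174 passed the filter of at least 500 genes and at most 10% mitochondrial UMIs. Over all cells before the filter, median depths were 9015, 7579, 5887 and 9388 UMIs per cell. All per-library values below are in that order.

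Granzymes reach a target cell through pores made by perforin. Granzyme B cleaves after aspartate and sets off caspases, granzymes A and K cleave after basic residues, and granzymes C, D, E and F are rodent relatives of granzyme B encoded beside it. NK cells and CD8 T cells are the classical carriers, but activated CD4 and regulatory T cells also make granzyme B.

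The gates held 42, 103, 39 and 77 NK cells, 102, 113, 184 and 68 CD8 cells, 62, 65, 62 and 109 CD4 cells, 39, 30, 23 and 35 regulatory cells, and 78, 60, 39 and 75 proliferating T cells. T cells with at least 2 UMIs of NK receptor genes (Ncr1, Klrb1c, Klre1, Klra4, Klra7, Klra8) were kept apart as NK-marker T cells, 114, 117, 62 and 121 cells. Of these 414 cells, 277 met the CD8 rule, 381 had at least 2 UMIs of Klre1 and 169 were cycling. Their median depth was 9427 UMIs, against 3914 in NK cells and 4845 in CD8 cells, and they may hold doublets, which were not called. Markers that did not set the gates were read as a check. The NK check list (Klrk1, Klrd1, Il2rb, Tyrobp, Fcer1g) summed to a mean of 6597 CPM in the NK gate and 1741 in the CD8 gate, but also to 6937 in myeloid cells, which share Tyrobp and Fcer1g. Trac, Trbc1, Trbc2, Cd2 and Cd5 together gave 935 in NK cells and 4403 in CD8 cells. Il2ra, Ctla4, Ikzf2 and Tnfrsf18 gave 5555 in regulatory cells against 1849.9 in CD4 cells, and Stmn1, Tubb5 and Ccna2 gave 2776 in proliferating cells against 258 in CD8 cells. Cd40lg and Icos together were higher in regulatory cells (1233) than in CD4 cells (905), so those markers did not part these gates. Cd160 and Klrc1 together gave 295 in CD8, 294 in NK-marker T, 164 in CD4 and 124 in NK cells. The CD8 and CD4 libraries overlapped in that sum, so this check of the CD8 gate was weak. Trdc and Tcrg-C1 gave 39.1 in NK cells and 6.11 in CD8 cells. Proliferating cells were a mixture, of which 104, 67 and 43 met the CD8, CD4 and regulatory rules.

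The level of Gzma was highest in NK cells, although NK-marker T cells held more of its UMIs (37.0% of 27836, against 31.2% in NK and 19.2% in CD8 cells). Its level in NK cells was 9567, 7575, 5629 and 3899.7 CPM, against 2278, 589.8, 2506 and 3062 in CD8 cells and 723, 149.6, 737 and 1005 in proliferating cells. In CD4 cells it was 12.9, 11, 3.05 and 331.5, and in regulatory cells 0, 0, 14.8 and 31.8. Mean levels ran from NK cells (6668 ± 2448, SD, n = 4 libraries) through NK-marker T cells (2520.0 ± 1458), CD8 cells (2109 ± 1065), proliferating cells (654 ± 360.2), CD4 cells (89.6 ± 161) and regulatory cells (11.7 ± 15.2). Below NK cells, the ranges of neighbors in this order overlapped. After thinning every cell to 2000 UMIs, Gzma was found in 80.8% of NK cells, 25.8% of CD8 cells, 9.96% of proliferating cells, 3.41% of CD4 cells and 1.65% of regulatory cells. The unthinned shares in NK, CD8 and proliferating cells were 83.1%, 29.1% and 14.3%. The background, read in myeloid cells, was 0.430% (1.55% unthinned), at a median depth of 12027.5 UMIs against 3914 in NK cells and 4845 in CD8 cells. Thinning left out 21 NK, 22 CD8 and 163 myeloid cells that held fewer UMIs.

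Gzmk, the neighbor of Gzma on chromosome 13, was almost absent from NK cells. Its level was 14.2, 1.86, 5.79 and 0 CPM in NK cells and 142, 239, 109.7 and 232 in CD8 cells, with no overlap. It was 62.8, 18.9, 83.9 and 33.9 in proliferating cells and 3.24, 15.4, 3.05 and 5.16 in CD4 cells. No UMI of Gzmk was read in the 127 regulatory cells, nor of Gzmd, Gzme or Gzmf, out of 670147 UMIs, so each stood below the 3 counts that a zero can hide. Thinned shares of cells with Gzmk were 23.8% in CD8 cells (39.0% unthinned) and 9.16% in proliferating cells (21.0%), with 0% in myeloid cells (0.0585%). In CD8 cells Gzmk was spread thinly. Its 425 UMIs lay in 182 of 467 cells, with at most 12 in a cell.

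Gzmb was shared widely. It stood at 3506, 5164, 2125 and 2168 CPM in NK cells, 5819.5, 3029, 4422 and 4276 in CD8 cells, and 3403, 4602, 2825 and 3316 in regulatory cells. In proliferating cells it was 1707, 1961, 1560.4 and 1273, and in CD4 cells 453, 685, 168 and 308. Means were 4390 ± 1299 in NK-marker T cells, 4387 ± 1142 in CD8 cells, 3537 ± 755 in regulatory cells, 3241 ± 1433 in NK cells, 1625 ± 287 in proliferating cells and 404 ± 221 in CD4 cells (SD, n = 4). The first 4 of these overlapped library by library, while proliferating and CD4 cells stood below them. Gzmb was found in 77.5% of CD8 cells, 72.7% of regulatory cells, 71.3% of NK cells, 52.6% of proliferating cells and 15.7% of CD4 cells after thinning, and in 82.4%, 77.2%, 75.9%, 61.9% and 20.1% without it. The myeloid background was 0.769% (3.37% unthinned). Regulatory cells, at a median depth of 4516 UMIs, thus carried Gzmb about as often as NK cells did, while Gzma was close to the background in them.

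The level of Prf1 was highest in NK cells, which held 26.0% of its 3839 UMIs, against 40.1% in NK-marker T cells, and both Prf1 and Nkg7 were read in every lymphoid gate. Prf1 was 979, 849, 539 and 526 CPM in NK cells, 266, 112, 266 and 299.9 in CD8 cells, and 326, 77.9, 64.0 and 48.2 in proliferating cells. It was 51.8, 76.9, 9.15 and 18.1 in CD4 cells and 6.63, 78.9, 14.8 and 114 in regulatory cells. Nkg7 was 2803, 2379.6, 2009 and 1510.2 in NK cells, 3016, 2944, 3525 and 3398 in CD8 cells, 2181, 1982, 1177 and 1544 in CD4 cells, and 1188, 899, 689.6 and 1192 in regulatory cells. Every NK library stood above every CD8 library for Prf1, and below every CD8 library for Nkg7. Thinned shares of cells with Prf1 were 61.3% in NK, 27.6% in CD8 and 13.1% in proliferating cells (78.5%, 49.0% and 37.7% unthinned), with a myeloid background of 0.246% (0.498%). Nkg7 was found in 95.5% of CD8, 88.3% of NK, 74.5% of proliferating, 72.0% of CD4 and 57.9% of regulatory cells after thinning, with a background of 0.492% (2.40%). Nkg7 was thus common in CD4 cells, where Gzma and Gzmb were found in few.

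**Figure D1:**
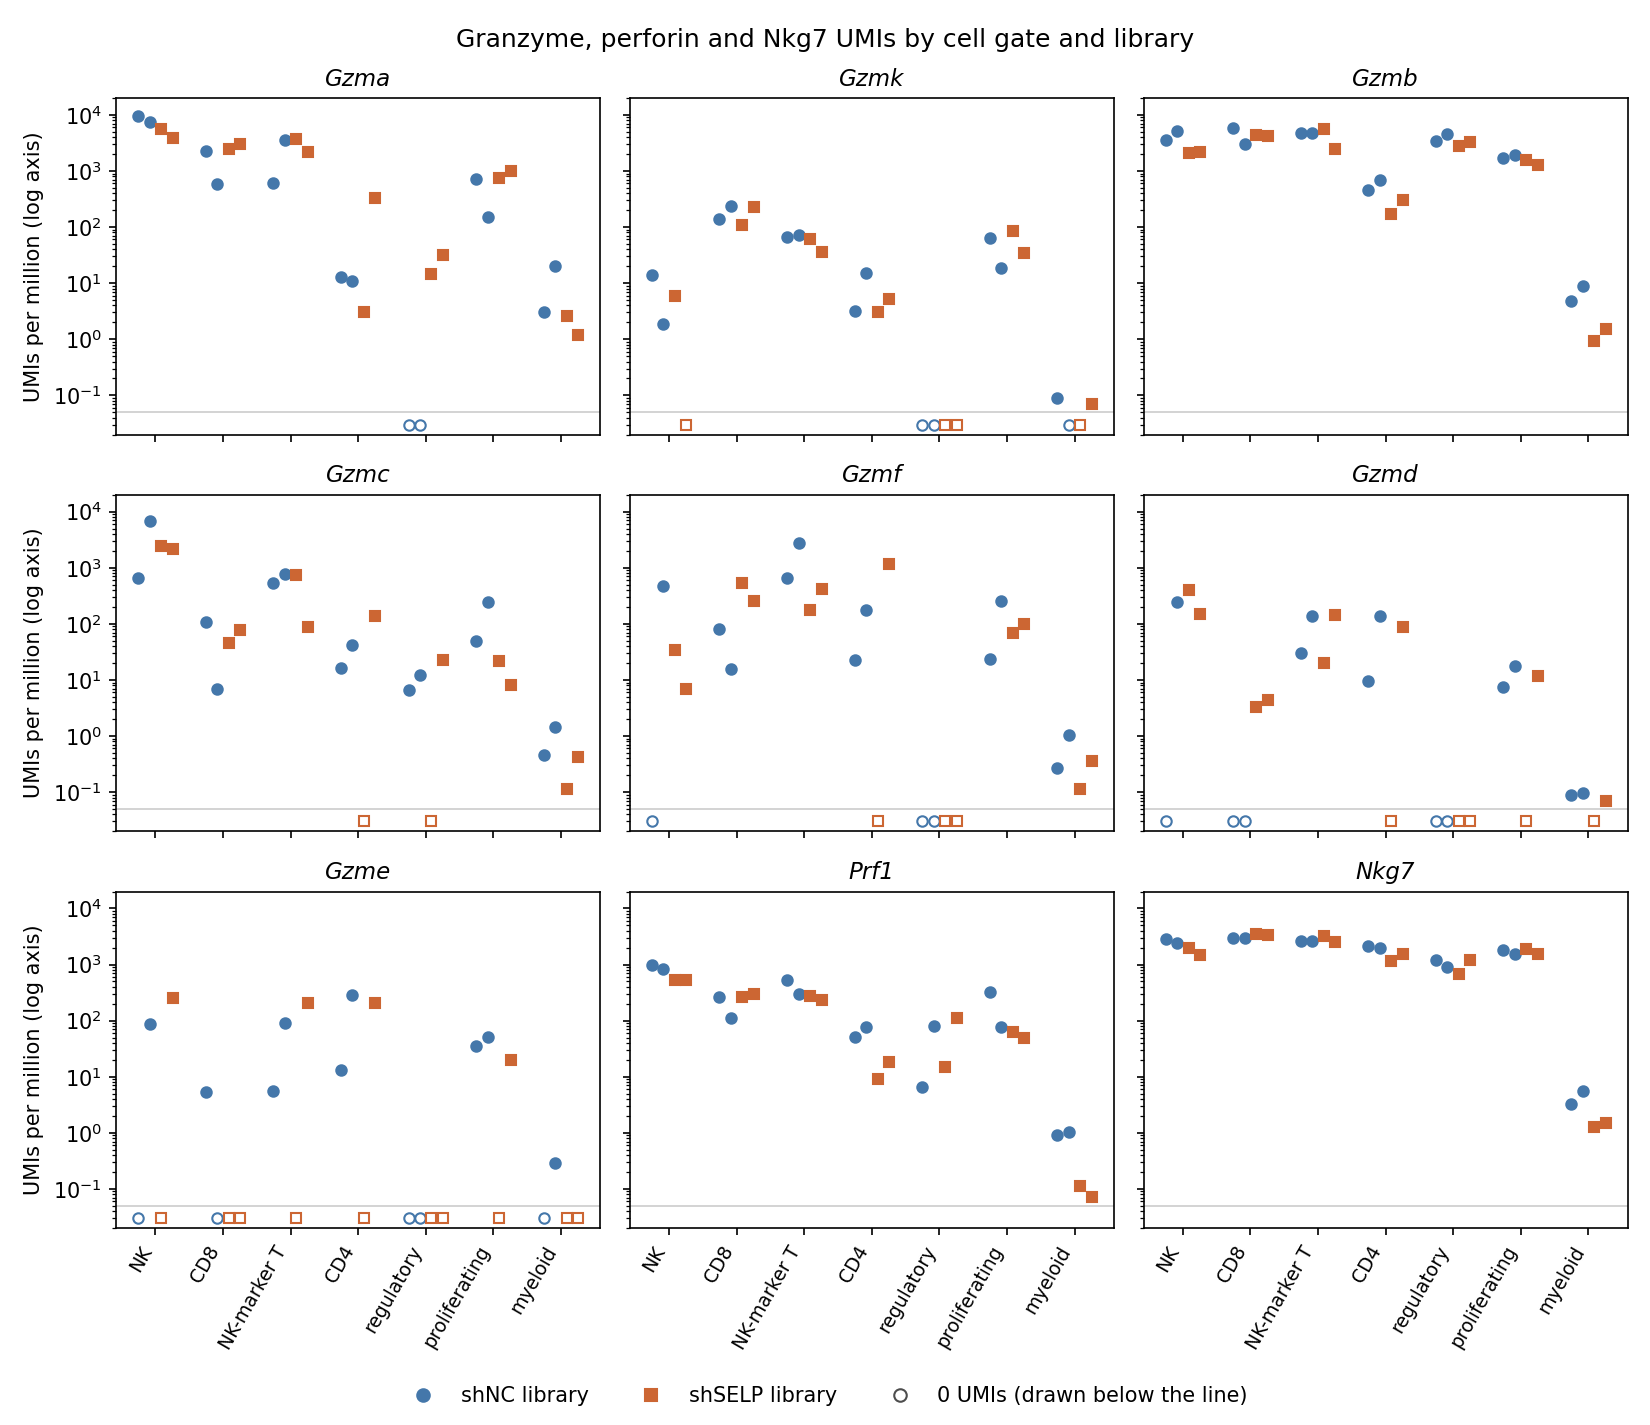
Level of each of the 9 genes in CPM (log axis) by gate and library. Circles are shNC and squares shSELP libraries; open symbols below the line mark libraries with 0 UMIs.

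Gzmc, Gzmd, Gzme and Gzmf were read in few cells. Gzmc was 653, 6758, 2403 and 2194 CPM in NK cells and 109.8, 6.98, 45.6 and 78.2 in CD8 cells. In NK-marker T cells it was 545, 767, 745 and 87.8. Of the 8388 UMIs of Gzmc in all kept cells, 64.8% lay in NK cells and 25.8% in NK-marker T cells. Thinned shares were 15.4% in NK cells (18.4% unthinned) and 14.8% in NK-marker T cells, against 0.215% in myeloid cells. Gzmd was 0, 243, 405 and 148 in NK cells and 9.71, 138, 0 and 86.4 in CD4 cells, and Gzme was 0, 85.4, 0 and 257 in NK cells and 12.9, 281, 0 and 208 in CD4 cells. Gzmf was 0, 479, 34.7 and 6.80 in NK cells, 81.5, 15.7, 541 and 259 in CD8 cells and 22.7, 176, 0 and 1149 in CD4 cells. Most Gzmf UMIs, 64.1% of 7900, came from NK-marker T cells, where it stood at 649, 2784, 176 and 419.9.

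These sums were held up by single cells. In CD8 cells the top cell gave 28 of 46, 9 of 9, 409 of 498 and 114 of 119 UMIs of Gzmf in the 4 libraries, and without it the levels were 32.5, 0, 97.8 and 11.1 CPM. Gzmc in NK cells had 76 of 92, 720 of 3638, 405 of 415 and 724 of 1290 UMIs in the top cell, and its 5435 UMIs came from 48 of 261 cells. Without the top cell Gzmc stood at 120 (shNC 1), 5685, 63.4 and 1005, so that shSELP 1 fell within the range of the CD8 libraries. Gzmd, Gzme and Gzmf in NK cells came from 6, 3 and 4 cells (288, 197 and 268 UMIs), with 256 of the 258 Gzmf UMIs of shNC 2 in a single cell. In NK-marker T cells the top cell gave 579 of 821, 1306 of 3543, 28 of 88 and 248 of 612 UMIs of Gzmf. Gzma in CD8 cells was also uneven, with 136 of 467 cells holding all 5341 UMIs and top cells of 368, 56, 405 and 511, whereas Gzma in NK cells was spread over 217 of 261 cells.

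**Figure D2:**
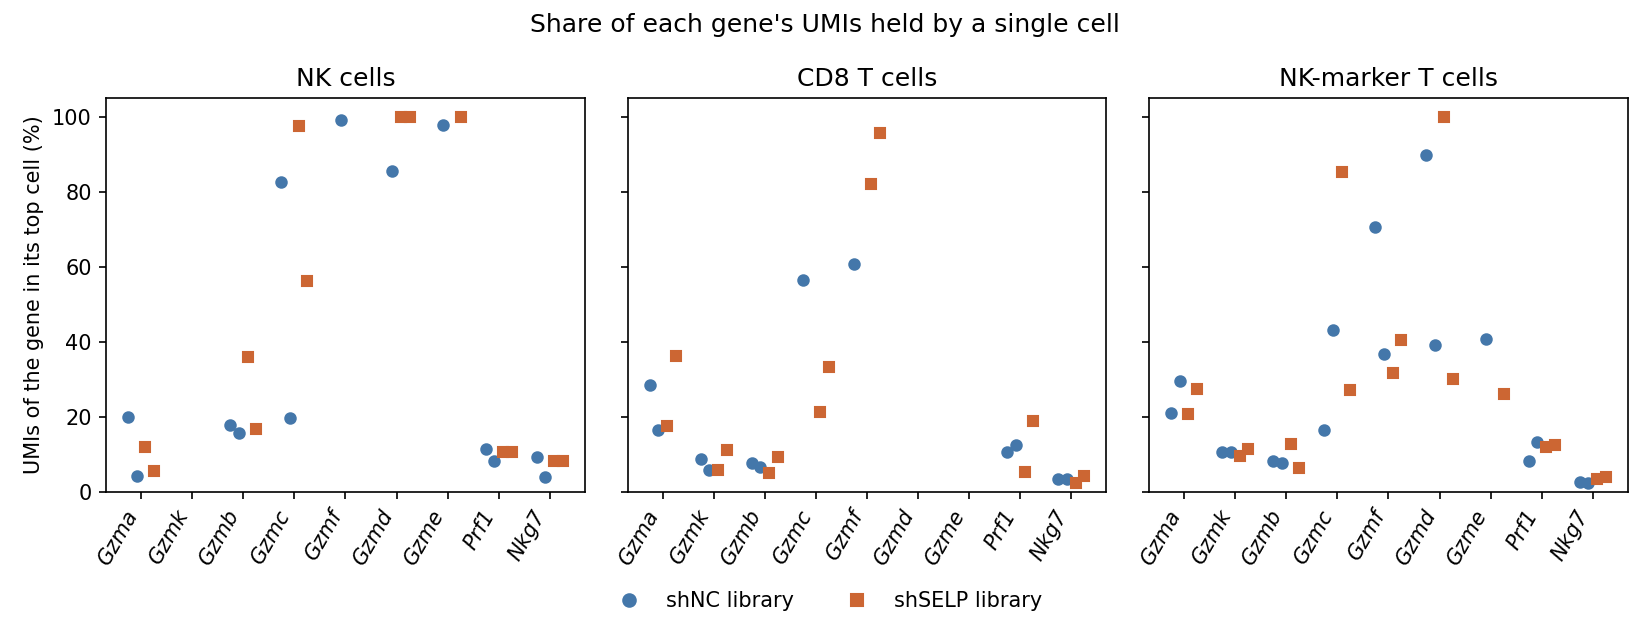
Percent of each gene's UMIs that came from the single top cell, per library, in NK, CD8 and NK-marker T cells. Only libraries with at least 10 UMIs of the gene are drawn; circles are shNC and squares shSELP.

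In the same cells, members were paired unevenly. Of CD8 cells thinned to 2000 UMIs (445 cells), 94.8% of those with Gzma also had Gzmb, against 71.5% of those without Gzma. Gzmk was found in 39.1% of Gzma-positive and 18.5% of Gzma-negative CD8 cells, and the difference had the same sign in every library (50.0 against 11.4%, 50.0 against 26.0%, 24.3 against 14.3% and 37.5 against 30.2%). In NK cells Gzmb was found in 81.4% of Gzma-positive and 28.3% of Gzma-negative cells, and Prf1 in 74.3% of Gzmb-positive and 29.0% of Gzmb-negative cells. In CD8 cells the latter pair was 31.6% and 14%. Over all lymphoid gates (1951 cells), 73.7% of Gzmd-positive cells had Gzme, 50.0% had Gzmc and 39.5% had Gzmf, against 0.784%, 7.37% and 3.92% of the rest. Pairing may also rise with RNA content that thinning does not remove, and no test was made of it.

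NK and CD8 cells of the same libraries were compared with the library as a block. The test called 691 of 5339 genes (12.9%) at an adjusted p of 0.05 or less, 408 higher in NK cells (7.64%) and 283 higher in CD8 cells (5.30%), and 5 of the 7 members tested. Gzmc was higher in NK cells by 5.30 on the log2 scale (SE 0.68, adjusted p 7.0e-05), with the top cells above included, Gzma by 1.77 (0.38, 0.00538) and Prf1 by 1.62 (0.29, 0.00115). Nkg7 stood at -0.61 (0.18, 0.0349). Gzmk was called lower in NK cells (adjusted p 4.7e-07), where it had 4 UMIs against 425 in CD8 cells, too few to fix the size of its difference. Gzmb, at -0.53 (0.25), was not called (adjusted p 0.209), nor was Gzmf. DESeq2 called 440 genes and 3 members, leaving Gzma at an adjusted p of 0.0745 and Nkg7 at 0.123. Nkg7 lost its call without shSELP 1 (-0.53, 0.204) or without shSELP 2 (-0.41, 0.261), and without shNC 2 Gzma was 1.16 (0.00678), Gzmb -0.96 (0.0011) and Gzmf -4.69 (3.3e-07). The genes called fell from 691 to 447 without shSELP 1.

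Around these members, 34 genes of granule loading, release, death ligands, inhibitors, regulators and chemokines were read. Of the protease inhibitors, 3 of 3 tested were higher in NK cells, namely Serpinb9b (6.54), Serpinb9 (1.39) and Serpinb6b (0.58). Among regulators Eomes (2.90) and Runx3 (0.70) were higher and Hopx was lower (-1.91), and among chemokines Xcl1 (2.22) and Ccl3 (1.06) were higher. Of granule and processing genes only Cst7 (-0.73) was called, of 5 tested, and of exocytosis genes only Vamp8 (-0.63), of 5 tested. None of the 3 death ligand and interferon genes tested was called, and Ifng had the smallest p.

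CD8 cells exceeded CD4 cells in 5 of 7 members, in a comparison that called 708 of 5211 genes (13.6%), 320 higher in CD8 cells (6.14%) and 388 higher in CD4 cells (7.45%). Gzma was higher by 5.24 (SE 0.46, adjusted p 1.1e-07), Gzmb by 3.64 (0.26, 5.6e-09), Prf1 by 2.71 (0.37, 3.4e-05) and Nkg7 by 1.04 (0.14, 2.8e-05). As libraries were left out, Gzma ranged from 4.58 to 7.51 and Prf1 from 2.20 to 3.65. Gzmk was called higher as well (adjusted p 2.0e-10), with 425 UMIs in CD8 cells and 13 in 10 CD4 cells, which leaves the size of its difference loosely known. Gzmc and Gzmf were not called, at 0.32 and -0.14, though without shSELP 1 Gzmf was -1.55 (0.0093). Chemokines Ccl5 (4.67), Xcl1 (2.98) and Ccl4 (0.81) were higher in CD8 cells, as were Ctsw (2.05) and Cst7 (0.66). Srgn (-0.42), Stx11 (-1.94), Vamp8 (-0.83), Lta (-2.09), Ifng (-1.68) and Tnf (-1.14) were lower. Of regulators Runx3 (0.57) was higher and Zeb2 (-1.01) and Id2 (-0.51) were lower, and of the 2 protease inhibitors tested none was called, Serpinb9 having the smallest p.

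Regulatory and CD4 cells parted in Gzmb. The comparison called 611 of 3539 genes (17.3%), 320 higher in regulatory cells (9.04%) and 291 higher in CD4 cells (8.22%), and 2 of 3 members. Gzmb was higher in regulatory cells by 3.21 (SE 0.16, adjusted p 3.7e-12) and Nkg7 lower (-0.83, SE 0.13, 6.6e-05), while Prf1 was not called (0.69, 0.379). Gzmb kept its call whichever library was left out. Beside it, Cst7 (0.69), Hopx (1.77), Prdm1 (1.02) and Ccl5 (1.07) were higher in regulatory cells. Ctsc (-1.22), Stx11 (-0.63), Ifng (-6.27), Serpinb6b (-1.80), Serpinb9 (-1.48), Zeb2 (-1.68), Runx3 (-1.81), Id2 (-0.96) and Ccl3 (-1.73) were lower. The class II and neutrophil list (8 genes, Cd74 the most abundant) stood at 836, 7565, 1290.1 and 2406 CPM in the regulatory gate and 2861, 4286, 2156 and 844 in the CD4 gate. With cells carrying it left out, an alternative chosen after seeing the data, 594 of 3384 genes and 2 members were called, Gzmb at 3.36 and Nkg7 at -0.83.

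As a share of UMIs, proliferating cells stood below CD8 cells for 5 of 7 members, where 1804 of 6076 genes (29.7%) were called, 887 higher in proliferating cells (14.6%) and 917 higher in CD8 cells (15.1%). Their median depth was 11873.5 UMIs, against 4845 in CD8 cells. Per cell, Prf1 and Nkg7 had more UMIs in proliferating cells (446 and 5519 in 252 cells) than in CD8 cells (597 and 8200 in 467). Gzma, Gzmb and Gzmk had fewer per cell. Gzmk was -2.07 (SE 0.33), Gzma -1.88 (0.08, adjusted p 7.1e-11), Gzmb -1.56 (0.13), Prf1 -1.24 (0.33, 0.00864) and Nkg7 -1.06 (0.08). Prf1 was -0.98 without shSELP 1 (adjusted p 0.0794), -0.75 without shSELP 2 (0.0805) and -1.91 without shNC 1. Because the proliferating gate mixes lineages, its CD8 cells alone were also read against CD8 cells. There 855 genes and 3 members were called, and Prf1 was -0.29 (0.586) and Gzmk -0.69 (0.13), so these 2 could not be told apart from lineage. Ccl5 (-3.03), Ccl4 (-2.42), Eomes (-2.16), Fasl (-1.59), Ctsw (-1.38), Ccl3 (-1.36), Serpinb9 (-0.90), Runx3 (-0.88), Tbx21 (-0.81), Serpinb6b (-0.79), Hopx (-0.69), Cst7 (-0.61), Ifng (-0.60), Id2 (-0.27) and Srgn (-0.23) were lower, and Lta (2.37) and Stx11 (0.80) were higher.

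In NK cells, knockdown of Selp in the glioma cells went with lower Gzmb and Gzma. The test called 36 of 4533 genes (0.794%), 33 higher (0.728%) and 3 lower (0.0662%), and the 3 lower genes were Gzmb, Gzma and Tmsb4x. Gzmb, at 3506 and 5164 in shNC and 2125 and 2168 CPM in shSELP, fell by 1.11 on the log2 scale (SE 0.16, p 1.5e-05, adjusted p 0.00694). Gzma fell by 0.94 (0.16, adjusted p 0.0147). Prf1 (-0.87, SE 0.19, adjusted p 0.0575) and Nkg7 (-0.66, 0.16, 0.0994) were not called, although shSELP was lower than shNC in CPM without overlap for each of these 4 genes. Median depth in the NK gate was 2625, 3668, 3370 and 5493 UMIs per cell. CPM are shares of all UMIs of the gate, so UMIs per cell need not separate the groups in the same way, which was not tested. Gzmc (-0.81, 0.803) overlapped and was not called. Of the 8 members tested 6 were negative, with a median of -0.84 against 0.00 for all genes. DESeq2 called 16 genes, with Gzmb at an adjusted p of 8.1e-05, Gzma at 0.00114 and Prf1 at 0.0512.

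The calls of Gzmb and Gzma were lost with 3 NK UMIs required of a cell (1 gene called, Gzmb -0.90, adjusted p 0.249, Gzma -0.75, 0.402) and without lineage exclusion (8 genes called, Gzmb -1.15, 0.0736, Gzma -0.98, 0.0741). They were also lost without shSELP 2. The test then called 1 gene and no member, with Gzmb at -1.15 (adjusted p 0.541) and Gzma at -0.72 (0.541), where the lone shSELP library was assumed to vary as the others do. Without shNC 1, shNC 2 or shSELP 1 the counts were 95 genes and 4 members, 105 and 7, and 191 and 7. Prf1 was then called without shNC 2 (-0.97) and without shSELP 1 (-0.91), and Nkg7 likewise (-0.77 and -0.90). Gzmc was -1.68 without shNC 1 and 1.72 without shNC 2, called in both directions. The p-values of all comparisons measure only the spread between these libraries, which may be technical.

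Genes typical of other cells were higher in the shSELP libraries of the NK gate. Those called included Cxcl2 (63.9, 57.6, 266 and 791 CPM), Cd74 (1043, 721, 1598 and 3010.2), Flt1 (0, 1.86, 40.5 and 96.9), Tm4sf1, Ly6c1 and Il1r2. NK markers were lower in shSELP instead. The NK receptor genes of the gate summed to 2307, 2292, 1894 and 1549 CPM, and the NK check list to 7977, 6529, 6428 and 5454. Their part in the lower Gzmb and Gzma was not tested beyond the alternatives that follow. The class II and neutrophil list of 8 genes, Cd74 the most abundant, summed to 2889, 2381, 4847 and 10136 CPM. In an alternative chosen after seeing the data, NK-gate cells with fewer than 2 UMIs of Klrk1, Klrd1 and Il2rb together were left out. That kept 39, 101, 36 and 68 cells, and the 17 cells removed held 58 UMIs of Gzmb in 4 cells. Gzma was then 9576, 7583, 6456 and 4621 and Gzmb 3317, 5211, 2452 and 2569.7. Gzmb was -0.84 and Gzma -0.70, both at an adjusted p of 0.282, and no gene was called. Leaving out cells with 0.5% or more of their UMIs from that list, also chosen after seeing the data, gave 6 genes and no member, with Gzmb -0.87 and Gzma -0.71, both at 0.0869. The direction held in each reading and the libraries stayed apart in CPM, while the size shrank and the call was lost.

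In CD8 cells Gzmb, at 5819.5, 3029, 4422 and 4276 CPM, was not called (-0.02, SE 0.22, adjusted p 0.989). The test called 20 of 5413 genes (0.369%), 6 higher (0.111%) and 14 lower (0.259%), and 1 of 7 members. This was Gzmf, higher by 3.08 (0.46, adjusted p 0.00446), from 81.5 and 15.7 to 541 and 259. As 409 of 498 and 114 of 119 of its shSELP UMIs came from 1 cell each, and DESeq2 put it at an adjusted p of 0.914, this call carries mainly the UMIs of 2 cells. Returning NK-marker T cells to the gate, chosen after seeing the data, turned Gzmf to -0.61 (0.652). With them returned, 60 of 6631 genes and 2 of 7 members were called, 1 higher and 1 lower. Then 2 members were positive and 5 negative (median -0.13), against 5 positive and 2 negative (median 0.23) without them. The member values in CD8 cells thus depend on leaving these cells out. In the gate without them, Gzma (0.96, SE 0.39, 0.579), Prf1 (0.59, 0.717) and Nkg7 (0.23, 0.779) were positive, with shSELP above shNC without overlap for Gzma and Nkg7 but shNC 1 and shSELP 1 level for Prf1 (266 and 266), and Gzmk was -0.21 (0.921). None of these was called, by DESeq2 either, which called 10 genes.

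Without shNC 1 the value of Gzma in CD8 cells was 2.26 and without shNC 2 it was 0.29, and it was called without shNC 1, shSELP 1 (1.08) or shSELP 2 (0.84) but not without shNC 2, whose Gzma of 589.8 CPM was the lowest. Gzmf ranged from 2.34 to 4.74 as libraries were left out, with 112, 104, 44 and 83 genes and 4, 1, 2 and 2 members called in the order of the library removed. Genes called lower in shSELP CD8 cells included Il1b, Cxcl2, Cd74, H2-Aa and Tyrobp. Here the class II and neutrophil list, with Cd74 again the most abundant, fell the other way, at 2256, 1734, 252 and 526. Leaving out the cells that carry it gave 3 genes, and Gzmf had an adjusted p of 0.0128.

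**Figure D3:**
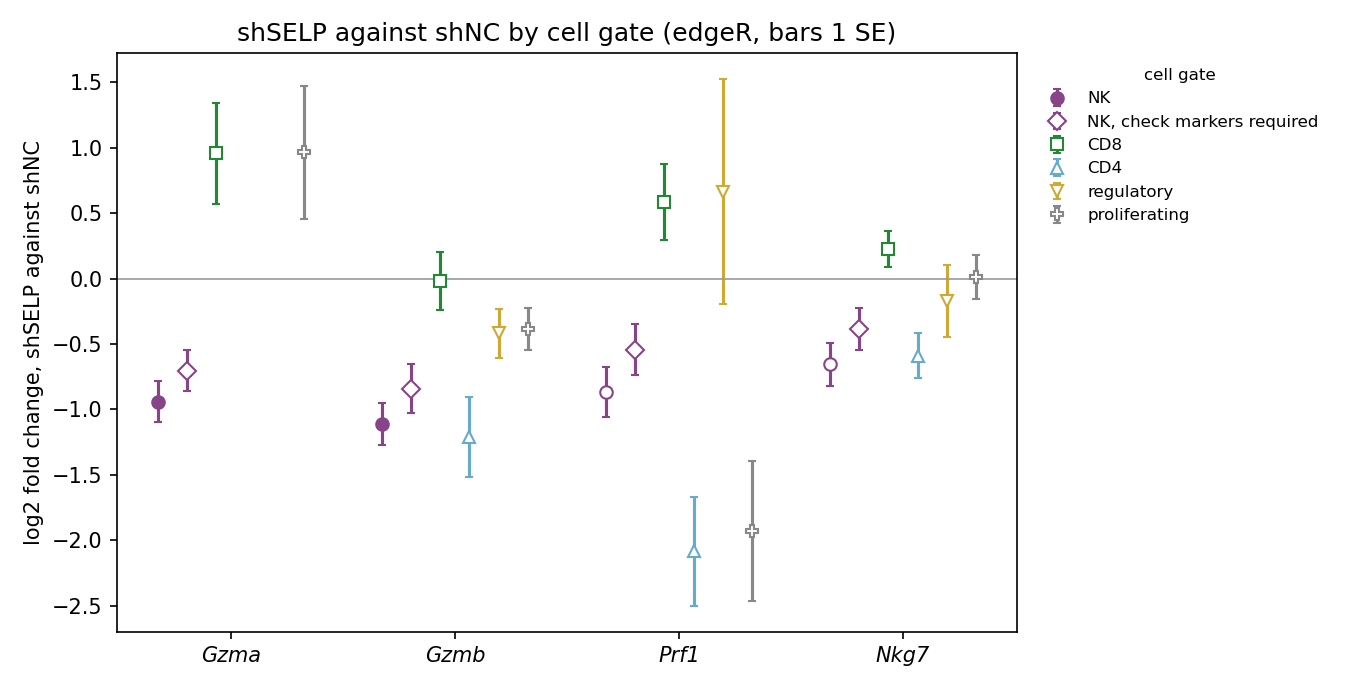
Log2 fold change of shSELP against shNC (± 1 SE) of Gzma, Gzmb, Prf1 and Nkg7 in the NK gate, the NK gate with 2 UMIs of Klrk1, Klrd1 and Il2rb required, and CD8, CD4, regulatory and proliferating T cells (2 libraries per group). Filled symbols have an adjusted p of 0.05 or less.

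Whether NK cells and CD8 cells answered differently was tested as an interaction. It called 46 of 6362 genes (0.723%), 39 with a more positive (0.613%) and 7 with a more negative (0.110%) response in NK cells than in CD8 cells, and 5 of 9 members were among the latter. The response in NK cells minus that in CD8 cells was -2.23 for Gzma (SE 0.29, adjusted p 4.5e-06), -6.92 for Gzmf (0.98, 1.8e-05), -1.60 for Prf1 (0.32, 0.00567), -0.90 for Nkg7 (0.21, 0.0192) and -1.17 for Gzmb (0.27, 0.0193). For Gzma and Nkg7 the 2 shSELP values were under shNC in NK cells and over it in CD8 cells, while for Prf1 they were under it in NK cells, and in CD8 cells shSELP 1 was level with shNC 1. For Gzmb the CD8 libraries overlapped. Ccl5 was the only called gene of the pathway list (-0.97, SE 0.20, 0.00737). Without shNC 1 Ccl5 was -0.48 (0.463) and without shSELP 2 it was -0.68 (0.235). DESeq2 called 17 genes and only Gzma of the members (0.00141), and without lineage exclusion edgeR called 4 genes and no member. With cells thinned to 2000 UMIs edgeR called 20 genes and 2 members, and with 3 NK UMIs required 33 genes and 2 members.

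Of the 5 members only Gzma kept its interaction call whichever library was left out, at -3.07 to -1.43, the smallest without shNC 2. The genes called numbered 73, 44, 56 and 40 and the members 5, 3, 4 and 3, in the order of the library removed, but not always the same members. Without shNC 2 the called members were Gzma, Gzmc (2.60) and Gzme (12.73), the latter 2 with the more positive response in NK cells. That of Gzme has no fixed size, as Gzme was 0 CPM in NK cells of shNC 1 and had 3 UMIs in all CD8 cells. Without shNC 1 Gzmc was called at -4.73. Without shNC 2 Gzmb was -0.40 (adjusted p 0.694), Prf1 -1.08 (0.143) and Gzmf 3.63 (0.862). Without shNC 1 Gzmb was -1.93. Nkg7 lost its call whichever library was left out (-0.83, -1.0, -1.05 and -0.73), and Prf1 also did without shSELP 2 (-1.50, 0.0985). With 2 UMIs of Klrk1, Klrd1 and Il2rb required of NK cells, Gzma was called at -1.97, Prf1 at -1.27 (0.0203) and Gzmb at -0.88 (0.0240), as was Gzmf, and no other member. With class II and neutrophil cells left out, 7 genes and 2 members were called, Gzma at -1.95 (0.0294) and Gzmf (0.0258), while Prf1 (-1.40, 0.192), Gzmb (-0.88, 1.0) and Nkg7 (-0.66, 0.863) were not. Genes called with more positive responses in NK cells again included Cxcl2, Il1b, Cd74 and H2-Aa.

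CD4 and regulatory cells gave no call. In CD4 cells edgeR called 0 of 4801 genes, with 217 at an unadjusted p below 0.05, and DESeq2 called 0 with 46. Prf1 was -2.08 (SE 0.42, p 0.000517, adjusted p 0.760), Gzmb -1.21 (0.30, p 0.00257, adjusted p 0.880) and Nkg7 -0.59 (0.17, p 0.00706, adjusted p 0.976), and in each the shSELP values were under the shNC values. The class II and neutrophil list, Cd74 the most abundant, was also lower in shSELP in this gate (2861 and 4286 against 2156 and 844 CPM). With cells carrying it left out, Gzmb of shNC 2 was 487 instead of 685 CPM, and Gzmb was -0.97, Prf1 -2.09 and Nkg7 -0.66, none of them called. The fits with a library left out disagreed in direction. In the order of the library removed, 3, 5, 5 and 0 members were positive and 5, 3, 3 and 7 negative. Gzmf was 4.75 without shNC 2 and -8.30 without shSELP 2. As Gzmf was 0 CPM in CD4 cells of shSELP 1, the value of -8.30 has no fixed size. Gzme and Gzmd in CD4 cells were each high in shNC 2 and shSELP 2 and low in the other library of each group. In regulatory cells edgeR called 0 of 2553 genes (103 at an unadjusted p below 0.05) and DESeq2 called 0 (26). Gzmb there was -0.42 (SE 0.19, p 0.0471, adjusted p 1.0), with both shSELP libraries below shNC, and Prf1 (0.66) and Nkg7 (-0.17) overlapped. Without each library in turn 19, 11, 10 and 31 genes were called in regulatory cells and 45, 25, 51 and 51 in CD4 cells.

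Proliferating cells gave no call either. Of 6945 genes edgeR called 0, with 405 at an unadjusted p below 0.05, and DESeq2 called 0 with 86. Gzmc was -3.51 (SE 0.74, p 0.000668, adjusted p 0.543), Prf1 -1.93 (0.54, p 0.00445, adjusted p 0.767), Gzmb -0.39 (0.16, p 0.0359) and Nkg7 0.01. Gzma was 0.97, from 723 and 149.6 to 737 and 1005 CPM. Prf1 was -0.52 without shNC 1 and -2.64 without shNC 2, as shNC 1 (326) held most of it. With each library left out, 26, 139, 1 and 4 genes and 3, 3, 0 and 0 members were called, Gzmc at -4.27 without shNC 1 and -1.99 without shNC 2. The class II and neutrophil list was 382, 4391, 289 and 1884 here, and its part was not tested beyond the alternative that left such cells out, where 1 gene was called.

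Over the proliferating, regulatory, CD8, CD4 and remaining T cells together, NK-marker T cells aside, 2 of 9054 genes (0.0221%) were called, Spp1 and Cxcl2, and no member. The paper reports granzyme B and perforin as higher in T cells of shSELP tumors, within its own T cell clusters. Neither was called here, where 3 of the 9 members were positive and 6 negative (median -0.27). The cells grouped and the unit tested are not the same in the 2 readings. Gzmc had the smallest p of the members (-1.26, p 0.000583, adjusted p 0.264), and DESeq2 called it (0.0279) among 9 genes. With each library left out, 163, 140, 1 and 16 genes and 5, 3, 0 and 1 members were called, Gzmc at -1.97 without shSELP 2. In the remaining T cells, not tested alone, Gzmb was 2828 to 2879 CPM in shNC and 569 to 767 in shSELP. Gzma, Gzmc, Gzmf, Prf1 and Nkg7 were also lower in shSELP there without overlap, while Gzmd, Gzme and Gzmk overlapped. Several of these rested on few of its 220 cells. Gzmf had 316 UMIs in 4 cells, Gzmc 126 in 10, Gzma 92 in 11 and Prf1 51 in 20. Gzmb was read in 70 cells and Nkg7 in 117. Median depth of this gate was 2408.5, 3237, 3555 and 5072 UMIs, and its part was not tested. NK-marker T cells, an added gate, gave 8 of 7754 genes (0.103%), 2 higher (0.0258%) and 6 lower (0.0774%), and no member. Gzmf was -2.45 (SE 0.55, p 0.00101, adjusted p 0.166) and Prf1 -0.68 (p 0.0145, adjusted p 0.373). The 6 lower genes were Cxcl2, Il1b, Fabp5, H2-Aa, Ccnb2 and Ube2c. The class II and neutrophil list was lower too (1389 and 1083 against 260 and 587 CPM), and its part was not tested beyond leaving out such cells. Without shSELP 1 the latter gate gave 90 genes and 5 members, and without shSELP 2 it gave 137 and 4. Without shNC 1 or without shNC 2 edgeR called 0 genes and 0 members there (275 and 718 genes at an unadjusted p below 0.05), and with all libraries DESeq2 called 11 genes and no member.

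Of the pathway list no gene was called between shSELP and shNC in any of these gates. In NK cells 5 of 8 granule, 3 of 6 exocytosis, 2 of 5 death ligand and interferon, 3 of 4 inhibitor, 6 of 7 regulator and 4 of 4 chemokine genes were tested, and the smallest p in each group belonged to Srgn (-0.48), Stxbp2 (-0.59), Ifng (-0.96, adjusted p 0.0987), Serpinb9b (1.17), Id2 (-0.33) and Xcl1 (-0.68). In CD8 cells these were Ctsw (0.58), Stx11 (-1.16), Ifng (-1.09), Serpinb6b (-0.64), Zeb2 (-0.49) and Ccl5 (0.49). In CD4 cells they were Ctsc (-0.70), Stxbp2 (-0.69), Lta (-0.44), Serpinb6b (-0.93), Runx3 (-0.34) and Ccl3 (-1.56). Regulatory cells had Lamp1 (0.56), Stx11 (0.34), Serpinb6b (-0.47), Id2 (0.48) and Ccl3 (-2.02), with no death ligand or interferon gene tested. Proliferating cells had Srgn (0.33), Stxbp2 (0.42), Ifng (-1.15), Serpinb6b (-0.67), Zeb2 (0.67) and Ccl3 (-1.31).

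Likeness to other genes was described over 20 sums (5 gates in 4 libraries) and 5287 genes. These sums share gates and libraries, and likeness between gates was not separated from likeness within them. Gzma was most like Dapk2 (r 0.93), Prdx6 (0.91) and Ctsw (0.91), Gzmb had Fgl2 (0.84) and Ptp4a3 (0.78) among its nearest genes, and Gzmc was most like Vegfa (0.90), Spry2 (0.89) and Nrarp (0.88). Prf1 was nearest Chsy1 (0.87), Klrk1 (0.86) and Cd7 (0.85), Nkg7 had Sh2d2a (0.93) and Pde3b (0.92) among its nearest genes, and Gzmf, with weaker values, was nearest BC005537 (0.68), Sla2 (0.67) and Zfp672 (0.66). Among members, Gzma went with Prf1 (0.82) more than with Gzmb (0.40), and Gzmc went with Prf1 (0.77). Gzmd, Gzme and Gzmk had too few sums with at least 5 UMIs (8, 7 and 9) to be ranked.

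The members lie in 4 places of the genome (GRCm38). Gzmb, Gzmc, Gzmf, Gzmd and Gzme share 144.635 kb of chromosome 14 (chr14:56117626-56262260) with Gzmn and Gzmg, all on the minus strand. Gzma and Gzmk lie 70.626 kb apart on chromosome 13. Along the chromosome 14 cluster, Gzmb and Gzmc at one end had 45733 and 8388 UMIs in all kept cells and Gzmd and Gzme at the other had 932 and 1053, with Gzmf (7900) between. Transcripts of Gzmd and Gzme were 94.8% identical over 916 aligned bases, with a shared run of 96 bases, and each was 87.6% identical to Gzmf. Their neighbor Gzmg was closer to both than Gzmf, 90.8% identical to Gzme and 90.5% to Gzmd, with a run of 101 bases shared with Gzmd. Reads of such genes can be assigned to the wrong member or dropped, so the counts of Gzmd, Gzme and Gzmf, and their presence in the same cells, carry that uncertainty.

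**Figure D4:**
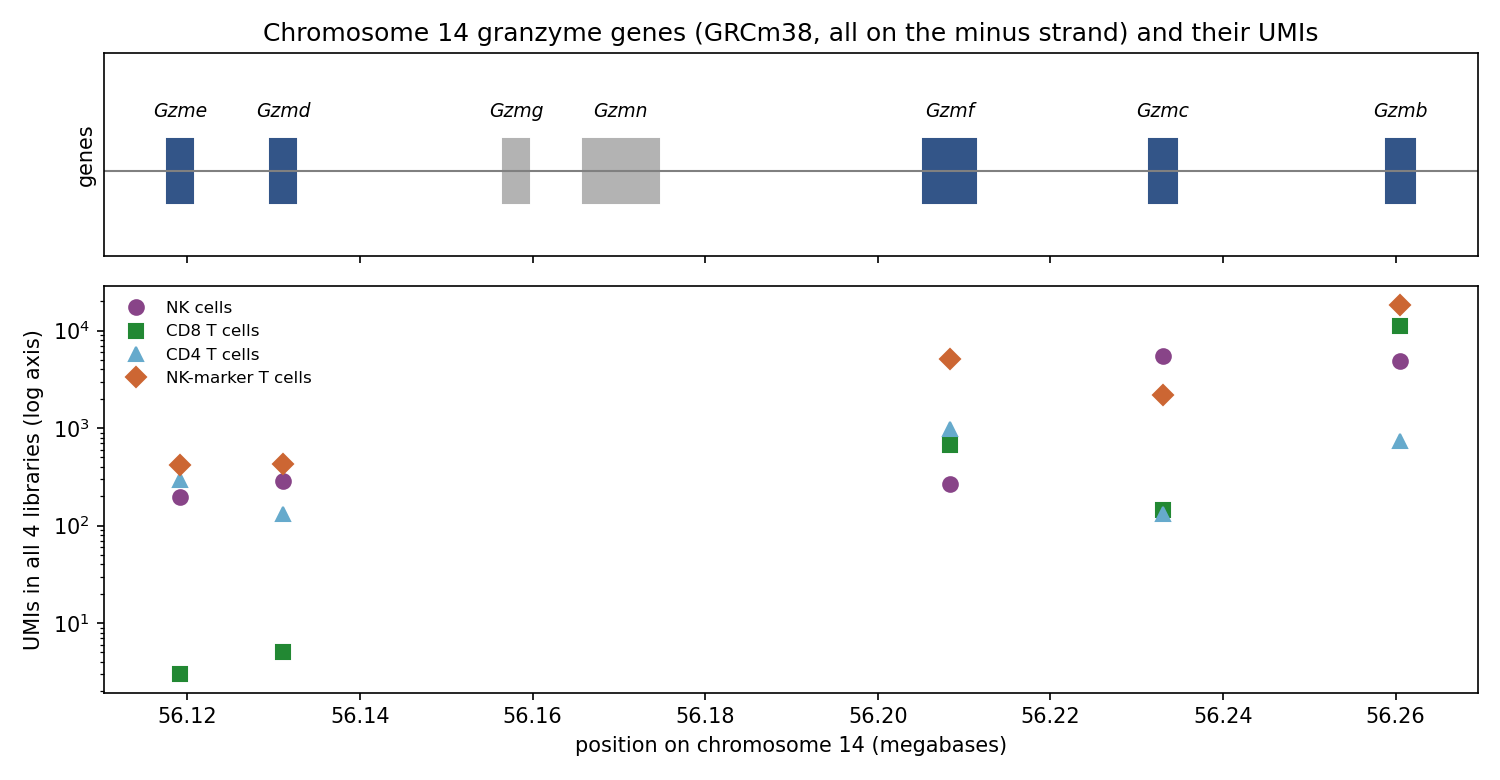
Granzyme genes on mouse chromosome 14, drawn to scale (members blue, Gzmg and Gzmn grey), above the UMIs of each member summed over all 4 libraries in each gate (log axis).

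The promoters of Gzmb, Gzmc, Gzmd, Gzme and Gzmf were compared from the starts given by RefSeq, which differ from the annotated gene ends for several members. Those of Gzmb and Gzmc lie outside the annotated gene, and those of Gzmd, Gzmf, Gzmk, Prf1 and Nkg7 lie inside it. Windows from 250 to 21 bases before that start were 95.6% identical between Gzme and Gzmd, 87.6% between Gzmf and Gzmd, 85.4% between Gzmf and Gzmc, and 66.2% between Gzmf and Gzmb, the last over only 142 aligned bases. A full cyclic AMP response element (TGACGTCA) was present in 357 of 27025 promoters (1.32%), and among the 9 members in Gzmc, 57 bases before the start, and Gzmf, 82 bases before it. Gzmd and Gzme carry the same stretch with a base changed (tgatgtca and tgacatca). An AP-1 site (TGANTCA), present in 1742 promoters (6.45%), was found only in Gzmb, 58 bases before the start. A Runx site (TGTGGT on either strand), present in 3593 promoters (13.3%), was found in 8 of the 9, all but Gzmk. The chromosome 14 windows are printed because the UMIs of Gzmb, Gzmc and Gzmf were spread differently over the gates while the genes lie side by side. All are read 5′ to 3′ on the minus strand, and capitals mark these sites.
Gzmb chr14:56262355-56262584: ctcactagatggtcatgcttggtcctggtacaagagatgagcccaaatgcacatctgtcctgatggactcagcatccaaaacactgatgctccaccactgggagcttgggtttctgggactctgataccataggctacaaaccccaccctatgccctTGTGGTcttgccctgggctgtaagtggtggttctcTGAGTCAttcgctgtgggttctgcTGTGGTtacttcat
Gzmc chr14:56234678-56234907: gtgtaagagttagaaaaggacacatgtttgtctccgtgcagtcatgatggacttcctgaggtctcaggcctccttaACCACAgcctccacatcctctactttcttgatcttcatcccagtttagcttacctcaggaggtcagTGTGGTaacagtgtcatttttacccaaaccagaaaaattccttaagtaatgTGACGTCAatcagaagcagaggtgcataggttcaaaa
Gzmf chr14:56211428-56211657: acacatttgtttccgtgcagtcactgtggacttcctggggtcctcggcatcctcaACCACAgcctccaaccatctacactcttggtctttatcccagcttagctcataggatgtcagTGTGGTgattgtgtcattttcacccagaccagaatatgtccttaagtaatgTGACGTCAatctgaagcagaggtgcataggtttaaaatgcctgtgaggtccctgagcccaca
Gzmd chr14:56132614-56132843: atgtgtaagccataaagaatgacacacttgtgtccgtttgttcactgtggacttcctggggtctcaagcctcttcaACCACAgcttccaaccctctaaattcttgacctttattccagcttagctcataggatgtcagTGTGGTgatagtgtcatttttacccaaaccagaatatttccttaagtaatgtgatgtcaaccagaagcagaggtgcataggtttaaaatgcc
Gzme chr14:56120646-56120875: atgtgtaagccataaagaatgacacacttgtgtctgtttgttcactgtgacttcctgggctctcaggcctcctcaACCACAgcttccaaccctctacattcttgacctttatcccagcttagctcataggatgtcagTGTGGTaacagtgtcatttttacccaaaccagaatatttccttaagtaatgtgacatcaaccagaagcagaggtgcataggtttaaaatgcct

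The CD11b+ table, with 1 library per group, listed 4 of the 9 members among 14363 genes, namely Gzma, Gzmb, Prf1 and Nkg7. The labels place its harvest at day 21 and the published methods at day 17. Of the 8 shSELP entries of that table, 7 are described in the labels as negative control, so its group names are uncertain. Its NK gate held 2 and 5 cells, with 80 and 51 UMIs of Gzma and 16 and 7 of Gzmb. Its T cell gates held 6 and 10 cells, with 26 and 15 UMIs of Gzma and 101 and 24 of Gzmb, out of 134 and 34 of Gzmb and 124 and 70 of Gzma in all kept cells, so the values that follow come mostly from a few lymphocytes. Over all kept cells Gzma was 9.89 CPM in shNC (95% Poisson interval 8.23 to 11.8) and 6.14 (4.78 to 7.75) in shSELP, and Gzmb 10.7 (8.96 to 12.7) and 2.98 (2.06 to 4.17). Prf1 was 1.20 (0.670 to 1.97) and 0.964 (0.481 to 1.73), and Nkg7 5.51 (4.28 to 6.97) and 6.93 (5.48 to 8.63). These intervals describe counting alone, and no test between groups was possible.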

How the data were processed

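The deposited counts are UMIs per gene and cell that the authors made with Cell Ranger 1.3 on mm10, with 20300 genes and 9172 cells of 4 mix libraries and, apart, 14363 genes of the CD11b+ libraries; 0 columns matched no library. Each library was deposited as 8 entries, which were read together as 1 library. The filter (minimum 500 genes, maximum 10% mitochondrial UMIs) passed 8726 cells, with 22945972, 22626413, 17398121 and 25589350 UMIs in shNC 1, shNC 2, shSELP 1 and shSELP 2 before the filter. Gates needed 2 UMIs of Cd3d, Cd3e and Cd3g (T), or 2 UMIs of NK receptor genes and at most 1 of Cd3 (NK), less than 0.5% myeloid UMIs and fewer than 3 B cell UMIs; 3 UMIs of cycle genes set proliferating T cells, then Foxp3, Cd8a with Cd8b1, and Cd4 set the rest. No doublet caller was run, and leaving out the deepest 5% of cells was an alternative. Barcodes shared between libraries numbered 5.

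UMIs were summed per gate and library and tested with edgeR 4.0.16 (TMM, filterByExpr, quasi-likelihood, R 4.3.3), 2 against 2 libraries, with p adjusted over all genes tested by Benjamini and Hochberg at 0.05. Comparisons between gates and the interaction used the library as a block. DESeq2 1.42.0 was the other tool. Exact permutation of 2 against 2 libraries can give no p below 0.333 and was not used. The fits were tested on simulated data. Cells were gated and summed with pandas 2.3.3, numpy 2.4.6 and scipy 1.17.1 in Python 3.11.15, promoters read with Biopython 1.88 and plots drawn with matplotlib 3.10.9. Levels (CPM) are counted at transcript ends and not per length, so they do not rank one gene against another. Intervals are exact at 95%. Likeness is a Pearson correlation of log levels with 10 added, for genes with a mean of at least 20. Some of the nearest genes are not reported here. Alternatives changed the tool, the low-count filter, depth by thinning, the gate rules and the libraries used. The members and the lists were chosen with earlier results of these data known. The genes named are the 9 members, the called genes of the pathway list (else the one with the smallest p per group) and genes of other cell types that moved in the same gate; the last were chosen after their values were seen. Protein sequences were not used here.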

Additional observations from a re-analysis of the deposited data

Results flagged for a closer look

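In each of these 6 genes the response to Selp knockdown differed between NK cells and CD8 cells by an interaction test in edgeR. The response in NK cells minus that in CD8 cells was -2.23 for Gzma, -6.92 for Gzmf, -1.60 for Prf1, -1.17 for Gzmb, -0.90 for Nkg7 and -0.97 for Ccl5 on the log2 scale. For Gzma and Nkg7 the 2 shSELP values were under those of shNC in NK cells and over them in CD8 cells, while Prf1 of shSELP 1 was level with shNC 1 in CD8 cells (266 and 266 CPM). For Gzmb 2 of 2 shSELP libraries were lower in NK cells, and its CD8 libraries overlapped. Gzmf rested on few cells, with 409 of 498 UMIs of shSELP 1 in a single CD8 cell, and without shNC 2 its value was 3.63. Cd74 and Cxcl2 were also called in this interaction, in the opposite direction. Their part in the values of the 6 genes was not tested beyond leaving out such cells, after which Gzma was -1.95 (adjusted p 0.0294) and Gzmf was called (0.0258), while Prf1 (-1.40, 0.192), Gzmb (-0.88, 1.0), Nkg7 (-0.66, 0.863) and Ccl5 (-0.83, 0.733) were not. DESeq2 called only Gzma of the 6, and none of the members was called in edgeR without lineage exclusion, where 4 genes were. With cells thinned to 2000 UMIs 2 members were called, and with 3 NK UMIs required also 2. Nkg7 lost its call whichever library was left out, Gzmb lost it without shNC 2 (-0.40, 0.694, against -1.93 without shNC 1), Prf1 without shNC 2 (-1.08, 0.143) or shSELP 2 (-1.50, 0.0985), and Ccl5 without shNC 1 (-0.48, 0.463) or shSELP 2 (-0.68, 0.235).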

How the results depend on the processing

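Counts below are genes called, then members called where that number also moved by more than 1.5 times. Of 188 readings of genes called, 99 stayed within 1.5 times of the reported count and 89 did not, and for members called 136 did and 52 did not. For the followed fold changes of members 549 readings kept direction and side of the threshold, 54 lost a call, 51 gained one and 6 changed direction. The causes were not tested, except that alternatives with fewer cells or fewer UMIs have less to count. With DESeq2 the knockdown counts were 16 in NK cells, 10 and 0 in CD8 cells and 9 and 1 in all T cells (NK-marker T cells aside), the interaction 17 and 1, NK against CD8 cells 440 and 3, CD8 against CD4 cells 285, regulatory against CD4 cells 297 and proliferating against CD8 cells 967. Without a filter on low counts they were 133 and 7 in NK, 75 in CD8, 61 and 5 in CD4, 19 in regulatory, 82 and 4 in proliferating, 184 and 3 in all T and 179 and 5 in NK-marker T cells, with 8 members for NK against CD8, 7 for regulatory against CD4 and 8 for proliferating against CD8 cells. With cells thinned to 2000 UMIs they were 16 in NK, 13 in CD8, 5 in regulatory, 1 in all T and 1 in NK-marker T cells, 20 and 2 for the interaction, and 401, 289, 249 and 514 between gates. With 3 NK UMIs required they were 1 and 0 in NK, 36 and 0 in CD8, 7 and 1 in proliferating, 4 in all T and 0 in NK-marker T cells, with 2 members in the interaction; with 3 Cd3 UMIs, 5 in all T cells. With myeloid UMIs under 0.2% they were 12 in CD8, 0 in all T and 2 in NK-marker T cells. Without lineage exclusion they were 8 and 0 in NK, 1 and 0 in CD8, 0 in all T and 14 in NK-marker T cells, and 4 and 0 for the interaction. With 6 cycle UMIs for proliferation they were 6 and 0 in CD8 and 3 and 1 in CD4 cells. Without the deepest 5% of cells NK-marker T cells gave 18, and with proliferating CD8 cells alone the comparison with CD8 cells gave 855 and 3. Of the alternatives chosen after seeing the data, 2 UMIs of Klrk1, Klrd1 and Il2rb required gave 0 and 0 in NK cells; leaving out cells with class II or neutrophil UMIs gave 6 and 0 in NK, 3 in CD8, 4 in regulatory, 1 in proliferating and 4 in NK-marker T cells, and 7 and 2 for the interaction; returning NK-marker T cells gave 60 and 2 in CD8, 13 in CD4, 5 in proliferating and 7 in all T cells, and 8 members for NK against CD8 cells. That return also reversed Gzmf in CD8 cells (-0.61) and all T cells (-1.14) and Gzme in the interaction (-1.71). Gzme in the interaction was -0.10 without shNC 1, 12.73 without shNC 2, 5.84 without shSELP 1 and -3.91 without shSELP 2. These values carry no size, as Gzme was 0 CPM in NK cells of shNC 1 and shSELP 1 and had 3 UMIs in all CD8 cells. Gzmf in the interaction ran from -9.61 without shNC 1 to 3.63 without shNC 2. Leaving out each library in turn, with the lone library of a group assumed to vary like the others, gave 1 to 191 genes and 0 to 7 members in NK, 44 to 112 and 1 to 4 in CD8, 25 to 51 and 4 to 6 in CD4, 10 to 31 in regulatory, 1 to 139 and 0 to 3 in proliferating, 1 to 163 and 0 to 5 in all T and 0 to 137 and 0 to 5 in NK-marker T cells. It gave 40 to 73 and 3 to 5 for the interaction and 447 to 684 and 4 to 7 for NK against CD8 cells. With a replicate block, which pairs libraries by number, the counts were 181 and 6 in NK, 29 and 3 in CD4, 7 in regulatory, 20 and 2 in all T and 21 and 1 in NK-marker T cells; libraries of a number were correlated after removing group means by only 0.059 in NK, 0.098 in CD8, -0.024 in CD4, 0.146 in proliferating and -0.027 in NK-marker T cells, so they share a number and the block is not used elsewhere. Gzmd, Gzme and Gzmk had at least 5 UMIs in only 8, 7 and 9 of 20 sums; how far depth limits them was not tested.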
